A study of Mus musculus with 8 samples.

Results

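Gene expression was compared between activated cardiac fibroblasts labelled as lacking both Smad2 and Smad3 and control fibroblasts of the same lineage, all from mouse hearts under pressure overload. The comparison held 4 of the 8 libraries of the series. They were 2 Postn-Cre control libraries (HK3 and HK4) and 2 libraries labelled Smad2/3 double knockout (DKO, HK15 and HK16). Libraries were put into groups by their labels, while the comparison itself was chosen with earlier results of these data known. Mice of both groups carried a tamoxifen-dependent Cre (MerCreMer) knocked into the periostin locus (Postn) and a Cre-dependent enhanced green fluorescent protein reporter in the Rosa26 locus. The DKO mice also carried loxP-flanked Smad2 and Smad3 alleles. All mice were injected with tamoxifen at 100 mg/kg on 2 days and then fed chow that supplied 40 mg/kg. They were 8 to 10 weeks old when the aorta was narrowed by transverse aortic constriction (TAC), and the ventricles were taken 4 weeks later. GFP-positive cells were sorted straight into lysis reagent. Cre acts in this model only where Postn has been switched on. By design, then, the cells are those that activated Postn during tamoxifen exposure, and cells that never did so are not represented. The labels do not say whether a library is 1 animal or a pool, so the p-values measure the spread between these libraries only.

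TGF-beta is secreted in a latent form that matrix-bound latent TGF-beta binding proteins hold near the cell. Once released, it binds receptor kinases that phosphorylate Smad2 and Smad3, which join Smad4, enter the nucleus and change transcription, while the related bone morphogenetic proteins (BMPs) act through Smad1 and Smad5. In cardiac fibroblasts the pathway is best known for raising matrix and contractile genes after injury. The results are therefore given mostly for receptors, secreted signals, enzymes, channels and nuclear genes outside the collagens.

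Library totals ran from 21477742 to 25998890 expected counts, and 3 counts correspond to 0.115 to 0.14 counts per 1000000 (CPM), a floor that covers counting error only. The first principal component of log2 CPM held 43.1% of the variance and separated the groups, while the second (30.0%) and the third (26.9%) separated libraries of the same group. Across 15760 tested genes, Pearson's r of log2 CPM was 0.936 for the control pair, 0.937 for the DKO pair and 0.918 to 0.924 between groups; genes are not independent replicates, so these are descriptions. Where 2 values stand for a group, they are in the order HK3 and HK4, then HK15 and HK16. Fold changes are log2, DKO minus control. They were tested with edgeR's quasi-likelihood F test, two-sided, n = 2 libraries per group, with Benjamini-Hochberg adjustment over all tested genes. The ± value is an approximate standard error (SE), the size of the log2 fold change divided by the square root of F. A gene rose or fell where the adjusted p was below 0.05.

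The targeted genes were read first. Smad2 (chromosome 18, 76241580 to 76310963) stood at 95.4 and 82.3 CPM (controls) and 84.5 and 78.2 CPM (DKO), and Smad3 (chromosome 9, 63646767 to 63757994) at 113.8 and 92.7 CPM (controls) and 70.5 and 109 CPM (DKO). Both ranges overlapped between groups, and the log2 values were -0.19 ± 0.19 (adjusted p = 0.747) for Smad2 and -0.26 ± 0.23 (adjusted p = 0.702) for Smad3. The labels do not name the deleted exons, and a count over the whole gene cannot show the loss of single exons, so these values do not check the label. Postn, the gene that drives Cre, was at 208 and 186 CPM against 295 and 283 CPM, a log2 fold change of 0.50 (adjusted p = 0.157), and Tcf21, a gene of resident fibroblasts, at 26.2 and 25.6 CPM against 37.7 and 31.99 CPM, a log2 fold change of 0.37 (adjusted p = 0.589).

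Xist, a long noncoding RNA that silences an X chromosome where there are a pair of them, gave 3.65 and 2.18 CPM (controls) and 277 and 75.3 CPM (DKO), with a wide gap between the DKO libraries themselves. Its log2 fold change was 5.84 ± 0.64 (adjusted p = 0.00459). The Y-linked genes Ddx3y (164 and 222 CPM against 132 and 177 CPM), Uty (51.3 and 66.2 CPM against 41.8 and 48.1 CPM), Kdm5d (34.0 and 21.3 CPM against 37.3 and 30.4 CPM) and Eif2s3y (44.3 and 40.4 CPM against 37.7 and 47.4 CPM) were present in all 4 libraries, and none passed the test. Genotype and the sex make-up of the libraries cannot be told apart here. Chromosome X held 12 called genes of 524 tested (2.29%), beside 1.31% of all tested genes, and 192 genes passed when X and Y genes were left out. The call was lost for Xist without HK3 and HK4 (adjusted p up to 0.546). The log2 value moved by over 1.5-fold for Xist (4.63 without HK15 and 6.49 without HK16).

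Of 15760 tested genes, 206 passed the threshold (1.31%), 71 of them higher (0.451%) and 135 lower (0.857%) in the DKO libraries. Of these, 193 were protein-coding and 122 of the 135 lower genes were not collagen chains. The shares of 0.451% higher and 0.857% lower are the background for every count of list members below. A count near them is not a result about its list. An unadjusted p below 0.05 was reached by 2139 genes (13.6%), and in 6995 genes (44.4%) the libraries of the groups did not overlap in CPM. When each library was left out in turn, 75 genes (0.476%) stayed past the threshold every time, 28 higher and 47 lower. Of the rest, 33 were lost without 1 library only and 9 were lost in all 4 such fits. The number of calls was 102 without HK15, 180 without HK16, 243 without HK3 and 297 without HK4.

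**Figure D1:**
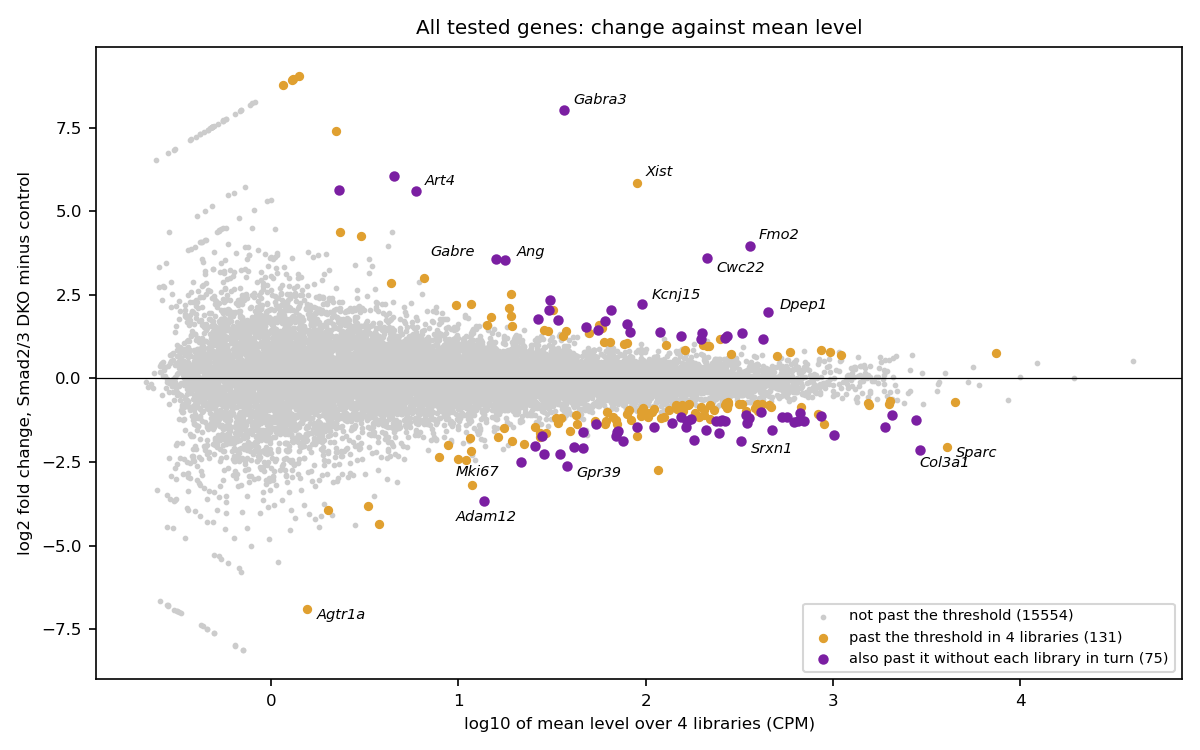
Log2 fold change (DKO minus control) against the log10 of the mean level over the 4 libraries for the 15760 tested genes; grey points did not pass the threshold, orange points passed it with all 4 libraries and purple points (75) also passed it without each library in turn. Gabra3, Fmo2 and Cwc22 stand out above, Adam12 and Gpr39 below, and the points at the far left that reach the largest values have 1 group at or near 0.

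Of 65 tested G protein-coupled receptors, 5 fell, none rose and 60 did not pass (list median -0.15, against 0.01 for all tested genes). Over all tested genes 0.857% were lower and 0.451% higher. Gpr39, a zinc-sensing receptor, went from 63.4 and 67.0 to 9.48 and 12.9 CPM. Both DKO libraries lay far below both controls, a log2 fold change of -2.60 ± 0.26 (adjusted p = 0.00139). Calcrl, which binds adrenomedullin and calcitonin gene-related peptide together with a partner protein, went from 309 and 432 to 119 and 127 CPM and fell by 1.65 ± 0.18 (adjusted p = 0.00199). Gpr133, an adhesion receptor, fell by 0.98 (adjusted p = 0.0186), and Lpar1, a receptor for lysophosphatidic acid, went from 336 and 336 to 212 and 215 CPM and fell by 0.71 (adjusted p = 0.0427). Agtr1a, the main angiotensin II receptor of the mouse heart, gave 115 and 40 counts (4.42 and 1.74 CPM) in the controls and 0 and 1 count in the DKO libraries. The summed counts give a control-to-DKO ratio of 149, with an exact binomial 95% interval of 26.3 to 5910 that covers counting error only, and an adjusted p of 0.0285. That ratio was 81.8 (13.9 to 3310) without HK3, 208 (36.6 to 8280) without HK4 and 68.0 (12.0 to 2700) without HK15. Without HK16 the DKO count was 0, and the level was at least 26.9-fold lower against a floor of 3 counts. Gpr64, an adhesion receptor, was outside the list and fell by 0.94 (adjusted p = 0.0424). The calls lost were those of Gpr133 without HK15 and HK16 (adjusted p up to 0.0839), Lpar1 without HK3, HK15 and HK16 (adjusted p up to 0.241) and Gpr64 without HK4, HK15 and HK16 (adjusted p up to 0.218). That of Agtr1a was lost without HK3 and HK15 (adjusted p up to 0.193). Those of Lpar1 and Gpr64 (adjusted p 0.0569 to 0.0704) were lost in the fit of all 8 libraries.

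Among growth factor receptors and tyrosine kinases, 1 of 42 fell and none rose (median -0.28). This was Gfra2, the co-receptor through which neurturin signals, at 58.9 and 55.8 CPM (controls) and 17.6 and 7.08 CPM (DKO). Its DKO values were well below both controls but differed from each other more than the controls did, and the log2 fold change was -2.27 ± 0.37 (adjusted p = 0.0143). Fgfr2, at -1.47 (adjusted p = 0.109), and Kit, at -2.04 (adjusted p = 0.111), did not pass. Of the growth factor ligands, 5 of 55 fell and none rose, beside 0.857% of all tested genes lower and 0.451% higher. The list median was 0.16. Inhba, the subunit of activin A, went from 899 and 1649 to 507.6 and 527 CPM, with controls that themselves differed widely. Angptl2, a secreted angiopoietin-like factor, went from 266 and 219 to 130.0 and 119 CPM and fell by 1.02 (adjusted p = 0.0150). Angptl4, which blocks lipoprotein lipase, went from 19.04 and 19.01 to 4.70 and 4.10 CPM and fell by 2.17 (adjusted p = 0.0156). Fgf1 fell by 1.76 (adjusted p = 0.0385) and Igf1 fell by 0.74 (adjusted p = 0.0386). The log2 fold change of Inhba was -1.35 (adjusted p = 0.0168). Of these ligands, calls were lost for Inhba without HK15 (adjusted p = 0.0750), Angptl2 without HK15 and HK16 (adjusted p up to 0.0689), Angptl4 without HK15 (adjusted p = 0.0691), Fgf1 without HK3, HK15 and HK16 (adjusted p up to 0.133) and Igf1 without HK3, HK15 and HK16 (adjusted p up to 0.252). In the fit of all 8 libraries Gfra2, Inhba and Igf1 (adjusted p 0.0708 to 0.212) also lost theirs, and without 1 library a value moved by over 1.5-fold for Gfra2 (-3.07 without HK15).

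Of 35 genes of the TGF-beta pathway itself (ligands, receptors, binding proteins and Smads), 1 fell, none rose and 34 did not pass (median -0.11). The one was Ltbp1, a latent TGF-beta binding protein, which went from 439.6 and 449.9 to 237 and 239 CPM, a log2 fold change of -0.96 ± 0.14 (adjusted p = 0.00806). Smad7 and Skil, which restrain the pathway, were at 1.05 (adjusted p = 0.0800) and 0.52 (adjusted p = 0.107), and Eng, a co-receptor, at -0.91 (adjusted p = 0.0917). Of 34 TGF-beta target genes other than collagens, 5 fell and none rose, beside 0.857% of all tested genes lower and 0.451% higher. Of the 34, 18 lay above and 16 below 0, with a median of 0.03. Adam12, a membrane metalloprotease, went from 24.2 and 26.6 to 1.76 and 2.37 CPM; both DKO libraries lay far below both controls, and it fell by 3.67 ± 0.38 (adjusted p = 0.00146). Fn1, fibronectin, fell by 1.09 ± 0.14 (adjusted p = 0.00365), Hspg2, perlecan, by 1.27 (adjusted p = 0.00756), and Adam19, another membrane protease, by 1.13 (adjusted p = 0.0210), besides Angptl4. Snai2 at -1.21 (adjusted p = 0.0505), Nox4 at 0.72 (adjusted p = 0.0520) and Junb at 1.44 (adjusted p = 0.0687) did not pass. None of 12 BMP and Smad1/5 target genes passed, 11 of them above 0 (median 0.80, and 0.36 to 0.81 without 1 library), led by Id3 at 0.99 (adjusted p = 0.0771). The calls lost were those of Ltbp1 without HK15 (adjusted p = 0.0761) and Adam19 without HK16 (adjusted p = 0.0825). In the fit of all 8 libraries those of Fn1 (adjusted p = 0.166) were lost.

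An IGF binding protein and 2 secreted Wnt modulators rose. Igfbp3, which carries insulin-like growth factors, went from 44.1 and 31.1 to 129 and 112 CPM, and both DKO libraries were above both controls. Its log2 fold change was 1.62 ± 0.23 (adjusted p = 0.00532), and it was the only one of 8 IGF-binding and receptor genes to pass. Of 41 Wnt ligands, receptors and modulators, 2 rose and none fell (median 0.21). Sfrp2, a soluble Frizzled-like protein, went from 79.0 and 96.9 to 194 and 246 CPM and rose by 1.27 ± 0.19 (adjusted p = 0.00736). Dkk3, a Dickkopf family protein, rose by 0.85 (adjusted p = 0.0276), and Wnt11 was at 1.64 (adjusted p = 0.0634). None of the Notch and Hedgehog genes passed; Smo was at -0.71 (adjusted p = 0.100), Jag1 at -0.84 (adjusted p = 0.128) and Hes1 at 1.20 (adjusted p = 0.177). Cytl1, a small secreted protein outside these lists, went from 27.3 and 22.1 to 121 and 91.6 CPM and rose by 2.04 ± 0.23 (adjusted p = 0.00229). A call was lost for Dkk3 without HK4 and HK15 (adjusted p up to 0.166), and in the fit of all 8 libraries for Sfrp2 and Dkk3 (adjusted p 0.0856 to 0.153).

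Several chemokine genes were higher in the DKO libraries. Of 35 chemokines and cytokines, 4 rose and none fell (median 0.03), beside 0.451% of all tested genes higher and 0.857% lower. Ccl7 and Ccl2, which attract monocytes, went from 32.3 and 21.8 to 84.7 and 103 CPM and from 166 and 144 to 315 and 455 CPM. The log2 values were 1.73 ± 0.25 (adjusted p = 0.00662) for Ccl7 and 1.26 ± 0.20 (adjusted p = 0.00985) for Ccl2, and the groups did not overlap. Cxcl16, a membrane-bound chemokine, went from 108 and 127 to 256 and 299 CPM and rose by 1.19 ± 0.17 (adjusted p = 0.00572), and Cxcl2, which attracts neutrophils, rose by 1.00 (adjusted p = 0.0380). Cxcl9 at -1.64 (adjusted p = 0.0783) and Il33 at -0.89 (adjusted p = 0.0935) lay the other way and did not pass. Outside the list, Il1f9, an interleukin-1 family cytokine, went from 2.77 and 3.96 to 15.4 and 16.9 CPM and Edn1, endothelin 1, from 3.88 and 4.09 to 24.3 and 14.4 CPM, with log2 values of 2.21 (adjusted p = 0.0256) for Il1f9 and 2.22 (adjusted p = 0.0236) for Edn1. The calls of Cxcl2 without HK3 and HK16 (adjusted p up to 0.183), Il1f9 without HK3, HK15 and HK16 (adjusted p up to 0.0899) and Edn1 without HK15 (adjusted p = 0.211) were lost. In the fit of all 8 libraries those of Ccl7, Ccl2, Cxcl2 and Edn1 (adjusted p 0.0519 to 0.331) were lost.

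Of 55 cytokine receptors and NF-kB regulators, 2 rose and 2 fell (median 0.02), beside 0.451% of all tested genes higher and 0.857% lower. The risen ones were both inhibitors that NF-kB itself induces. Nfkbia, which holds NF-kB in the cytoplasm, went from 75.2 and 53.9 to 183 and 167 CPM, with a log2 fold change of 1.38 ± 0.20 (adjusted p = 0.00710). Tnfaip3, the ubiquitin-editing enzyme A20, went from 89.7 and 77.3 to 169 and 179 CPM and rose by 1.00 (adjusted p = 0.0186). Il1r1, the interleukin-1 receptor, went from 1059 and 1163 to 513 and 592 CPM, a log2 fold change of -1.06 ± 0.15 (adjusted p = 0.00521). Tnfrsf21, a death-domain receptor, went from 66.0 and 71.9 to 25.7 and 21.7 CPM and fell by 1.60 ± 0.23 (adjusted p = 0.00575). Cd80, a ligand that costimulates T cells, went from 61.0 and 87.1 to 22.1 and 14.7 CPM and fell by 2.06 ± 0.28 (adjusted p = 0.00459). The calls of Tnfaip3 without HK15 and HK16 (adjusted p up to 0.0721) and Il1r1 without HK15 (adjusted p = 0.0665) were lost, and those of Tnfaip3 and Il1r1 (adjusted p 0.0960 to 0.0970) in the fit of all 8.

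The 250 bases before the start site of 3 of the risen genes are shown because each holds the NF-kB consensus, in capitals (both strands searched, RefSeq, build GRCm38.p6, 5′ to 3′ on the gene's strand). Nfkbia is on the minus strand at chr12:55492648-55492897, Tnfaip3 on the minus strand at chr10:19015411-19015660, with 2 matches, and Cxcl2 on the plus strand at chr5:90903649-90903898, where 2 matches overlap.
Nfkbia: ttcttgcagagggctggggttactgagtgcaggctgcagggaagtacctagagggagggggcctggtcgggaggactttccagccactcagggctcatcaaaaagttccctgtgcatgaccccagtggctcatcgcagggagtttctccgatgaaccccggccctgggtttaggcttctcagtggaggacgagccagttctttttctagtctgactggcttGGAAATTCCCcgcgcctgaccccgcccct
Tnfaip3: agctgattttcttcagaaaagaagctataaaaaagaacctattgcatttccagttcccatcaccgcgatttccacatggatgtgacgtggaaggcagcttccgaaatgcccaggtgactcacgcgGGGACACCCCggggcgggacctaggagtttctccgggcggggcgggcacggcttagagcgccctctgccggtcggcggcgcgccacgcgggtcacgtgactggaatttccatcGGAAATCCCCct
Cxcl2: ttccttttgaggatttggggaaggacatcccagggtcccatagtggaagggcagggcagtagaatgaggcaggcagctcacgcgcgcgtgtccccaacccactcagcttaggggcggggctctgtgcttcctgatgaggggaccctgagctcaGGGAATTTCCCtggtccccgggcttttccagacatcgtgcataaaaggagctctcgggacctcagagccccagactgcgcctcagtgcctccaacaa
RefSeq promoter sequence was matched for 139 of the 206 called genes, 46 higher and 93 lower. The consensus was found in 6 of the 46 promoters of higher genes, in 4 of the 93 of lower genes (4.30%), in 4.37% of those of all tested genes and in 3.75% of all 27025 promoters of that length. The 6 were Nfkbia, Tnfaip3, Cxcl2, Ifi30, Stk32b and Creld2. The Smad core CAGAC, in either direction, was found in 56.5% of the promoters of higher genes, 39.8% of lower genes, 40.7% of all tested genes and 42.1% of all promoters. A match is only a match of letters in this window.

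Of 38 complement and acute-phase genes, 2 rose and 1 fell. Serpina3n, a secreted serine protease inhibitor, went from 167 and 131 to 399 and 303 CPM and rose by 1.17 (adjusted p = 0.0121). Itih5, which binds hyaluronan, fell by 0.86 (adjusted p = 0.0131). Of 62 interferon-response and antigen-presentation genes, 2 fell and none rose (median -0.32, and -0.60 to 0.03 without 1 library). Ifi204, an interferon-inducible DNA-binding protein, went from 233 and 244 to 85.0 and 96.7 CPM and fell by 1.45 ± 0.17 (adjusted p = 0.00229), and Ly6e by 1.11 (adjusted p = 0.0172). Ifi30, a lysosomal thiol reductase outside the list, rose by 1.77 ± 0.28 (adjusted p = 0.00985). Of 40 immediate early genes, 3 rose and 2 fell (median 0.45, and 0.19 to 0.72 without 1 library). Gadd45b (1.36), Nr4a2 (0.79) and Egr1 (0.71) rose, whereas Klf6 (-0.79) and the kinase gene Plk2 (-0.98) fell, with adjusted p from 0.0184 to 0.0384. Lost were the calls of Serpina3n without HK15 (adjusted p = 0.0873), Itih5 without HK15 and HK16 (adjusted p up to 0.0979), Ly6e without HK15 and HK16 (adjusted p up to 0.0536), Gadd45b without HK15 (adjusted p = 0.186), Nr4a2 without HK4 and HK15 (adjusted p up to 0.208), Egr1 without HK4, HK15 and HK16 (adjusted p up to 0.148), Klf6 without HK15 (adjusted p = 0.185) and Plk2 without HK15 and HK16 (adjusted p up to 0.152). Those of Itih5, Gadd45b, Nr4a2, Egr1, Klf6 and Plk2 (adjusted p 0.0552 to 0.295) were lost in the fit of all 8 libraries.

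**Figure D2:**
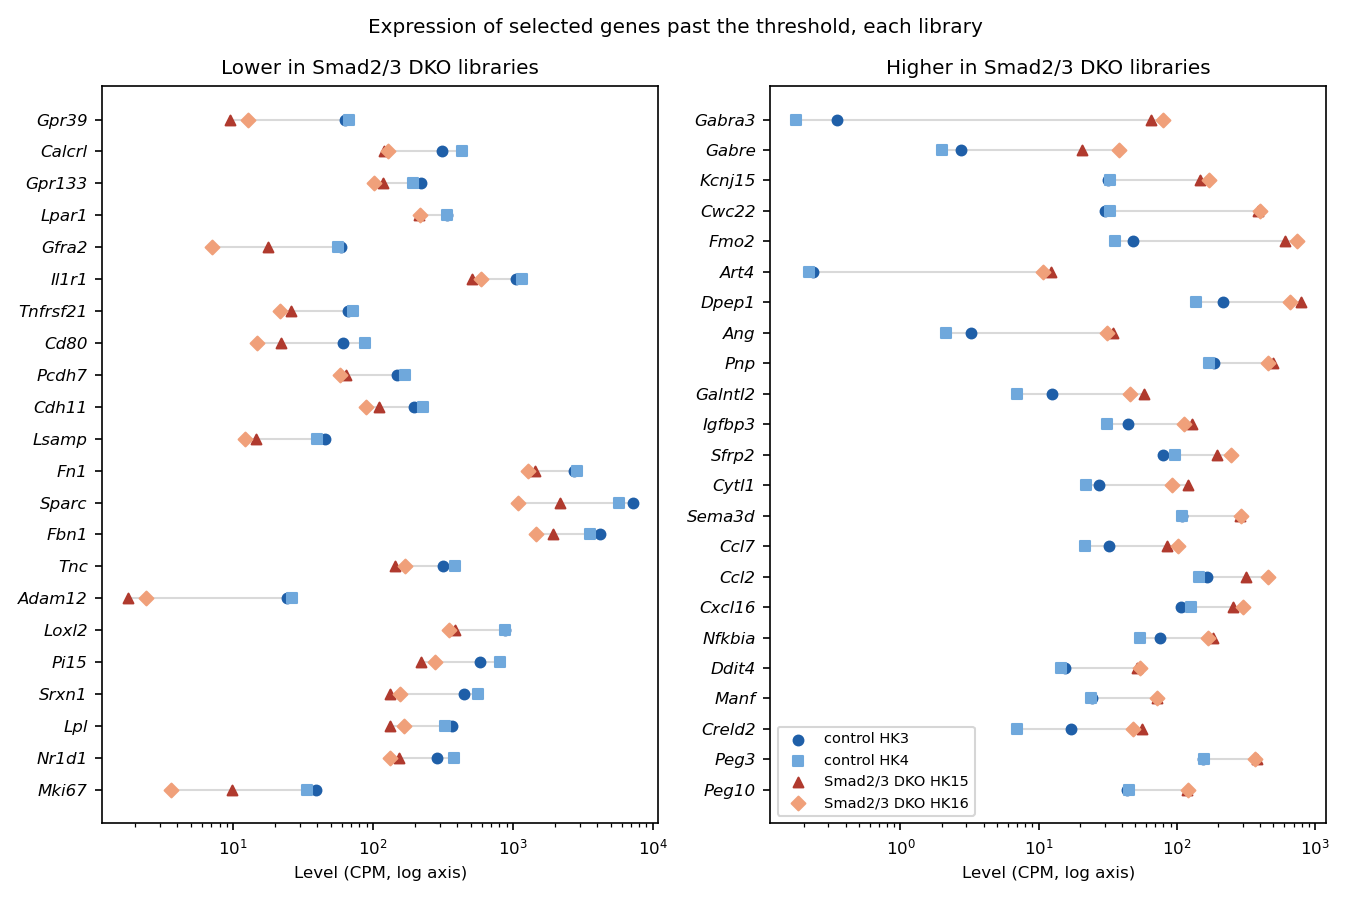
Level of selected genes that fell (left) or rose (right), in each of the 4 libraries (CPM, log axis; circles and squares are the control libraries, triangles and diamonds the DKO libraries). In every gene drawn both DKO libraries lie on the same side of both controls, with the widest gaps for Gabra3 and Art4. The genes were drawn because they passed the threshold in these same libraries, so this separation is no further support. The groups did not overlap in 44.4% of all tested genes.

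Of 68 matrix genes outside the collagens, 13 fell, 1 rose and 54 did not pass (median -0.20), beside 0.857% of all tested genes lower and 0.451% higher. Sparc, a collagen-binding protein, went from 7220.1 and 5750.4 to 2183 and 1087 CPM, with a log2 fold change of -2.05 ± 0.27 (adjusted p = 0.00442). Fbn1, fibrillin-1, went from 4158 and 3581 to 1931 and 1451 CPM and fell by 1.25 ± 0.17 (adjusted p = 0.00442), and Tnc, tenascin-C, from 318 and 388 to 144 and 169 CPM. Tnc fell by 1.23 ± 0.17 (adjusted p = 0.00489), Matn2, matrilin-2, by 1.08 (adjusted p = 0.00870), and Thbs4, thrombospondin-4, by 1.14 (adjusted p = 0.0121). The remaining fallen members were Vcan (-0.71), Frem1 (-1.34), Nid2 (-1.16), Lamb1 (-0.78), Lama4 (-0.77) and Lamc1 (-0.76), besides Fn1 and Hspg2. The one that rose was Smoc1, which carries calcium-binding modules, from 7.42 and 6.05 to 34.0 and 26.9 CPM, a log2 fold change of 2.12 (adjusted p = 0.00915). Collagen chains that did not pass were not counted, so no share can be set beside the 0.857% of all tested genes. All 13 called collagen chains were lower. Their log2 fold changes include those of Col3a1 (-2.15), Col1a1 (-1.69), Col11a1 (-2.04), Col15a1 (-1.26), Col5a1 (-1.01), Col6a1 (-1.32), Col6a2 (-1.15) and Col6a3 (-1.19). Among 53 matrix proteases and inhibitors, Mmp3 rose by 2.54 (adjusted p = 0.0276), and Adam12, Adam19, Adamts9 (-0.85) and Adamts2 (-0.93) fell. Outside these lists, the collagen crosslinker Loxl2 went from 878 and 873 to 383 and 352 CPM and fell by 1.31 ± 0.14 (adjusted p = 0.00187), and Sdc3, a transmembrane heparan sulfate proteoglycan, from 113.7 and 97.6 to 37.1 and 36.6 CPM, a log2 fold change of -1.58 (adjusted p = 0.00407). Pi15, a secreted peptidase inhibitor, went from 579 and 808 to 219 and 279 CPM and fell by 1.53 ± 0.19 (adjusted p = 0.00365), and Fndc1, a fibronectin-domain protein, fell by 1.26 ± 0.15 (adjusted p = 0.00347). Lost were the calls of Sparc without HK3 and HK4 (adjusted p up to 0.293), Vcan without HK15 and HK16 (adjusted p up to 0.262), Frem1 without HK3 and HK15 (adjusted p up to 0.206), Nid2 without HK3, HK15 and HK16 (adjusted p up to 0.136), Lamb1 without HK3, HK15 and HK16 (adjusted p up to 0.185), Lama4 without HK3, HK15 and HK16 (adjusted p up to 0.244), Lamc1 without HK3, HK15 and HK16 (adjusted p up to 0.197), Smoc1 without HK15 (adjusted p = 0.0750), Mmp3 without HK16 (adjusted p = 0.0569), Adamts9 without HK3, HK15 and HK16 (adjusted p up to 0.208) and Adamts2 without HK3, HK15 and HK16 (adjusted p up to 0.187). The fit of all 8 libraries lost those of Thbs4, Vcan, Frem1, Lamb1, Lama4, Lamc1, Col11a1, Adamts9 and Adamts2 (adjusted p 0.0716 to 0.304), and values moved by over 1.5-fold without 1 library for Mmp3 (1.95 without HK3 and 3.54 without HK4).

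Of 39 actin and contraction genes, 1 fell, none rose and 38 did not pass. It was Pdlim5, a scaffold of the Z-disc and stress fibre, at 401 and 378 CPM against 253 and 229.9 CPM, a log2 fold change of -0.75 (adjusted p = 0.0365). None of 29 integrin and focal adhesion genes passed, although 23 lay below 0 (median -0.22), the smallest p-values being those of Itgb3 (-1.13), Itga6 (-1.65) and Itga2 (-1.34), with adjusted p from 0.101 to 0.128. Pdlim3, an actin-binding PDZ-LIM protein of muscle, was outside the list and went from 13.9 and 8.87 to 50.2 and 48.4 CPM, a log2 fold change of 2.05 ± 0.30 (adjusted p = 0.00666). Sh3pxd2b, a podosome scaffold, went from 229 and 254 to 105 and 112 CPM and fell by 1.21 ± 0.16 (adjusted p = 0.00442), and Msn, moesin, which links actin to the membrane, fell by 0.72 (adjusted p = 0.0390). Calls were lost for Pdlim5 without HK3, HK15 and HK16 (adjusted p up to 0.173) and Msn without HK3, HK15 and HK16 (adjusted p up to 0.235), and in the fit of all 8 libraries for Pdlim5 and Msn (adjusted p 0.0642 to 0.0972).

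Of 51 cell-cell adhesion genes, 4 fell, none rose and 47 did not pass (median -0.22), beside 0.857% of all tested genes lower and 0.451% higher. Pcdh7, a protocadherin, went from 149 and 169 to 64.2 and 58.0 CPM, with a log2 fold change of -1.44 ± 0.18 (adjusted p = 0.00352). Cdh11, the cadherin of mesenchymal cells, went from 196 and 227 to 109 and 88.7 CPM and fell by 1.15 ± 0.18 (adjusted p = 0.00903), and Lsamp, a membrane-anchored immunoglobulin protein best known from neurons, from 45.3 and 40.1 to 14.6 and 12.1 CPM and fell by 1.73 ± 0.27 (adjusted p = 0.00989). Sdk1, sidekick-1, went from 22.7 and 14.3 to 3.76 and 3.35 CPM, a log2 fold change of -2.44 (adjusted p = 0.0154). Vcam1 and Icam1, which bind leukocytes, were at 0.67 (adjusted p = 0.0771) and 0.62 (adjusted p = 0.0783). Of 47 axon guidance genes, 1 rose and 3 fell (median -0.43, and -0.58 to -0.16 without 1 library). The one that rose was Sema3d, a secreted semaphorin, from 109.7 and 108 to 285 and 292 CPM, by 1.34 ± 0.15 (adjusted p = 0.00233). Sema3c, of the same class, lay the other way at 149 and 120.1 CPM against 74.9 and 61.9 CPM, a log2 fold change of -1.04 (adjusted p = 0.0301), as did Sema6d at -1.14 (adjusted p = 0.0215) and Slitrk2 at -2.41 (adjusted p = 0.0246). Nrp1, a receptor of class 3 semaphorins, was at -0.79 (adjusted p = 0.0711). Lost calls were those of Sdk1 without HK3 and HK15 (adjusted p up to 0.0684), Sema3c without HK3, HK15 and HK16 (adjusted p up to 0.118), Sema6d without HK3, HK15 and HK16 (adjusted p up to 0.0873) and Slitrk2 without HK3 and HK15 (adjusted p up to 0.131). In the fit of all 8 libraries Cdh11, Sema3c and Sema6d (adjusted p 0.0508 to 0.0798) lost theirs.

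Genes of 2 subunits of a neurotransmitter receptor rose from low levels. Gabra3 and Gabre encode subunits of the GABA-A receptor, a chloride channel, and lie within 1 Mb of each other on chromosome X. Gabra3 (ENSMUSG00000031343, chromosome X, 72432681 to 72656848) gave 9 and 4 counts in the controls and 1673 and 1708 in the DKO libraries. In CPM it went from 0.346 and 0.174 to 65.5 and 79.5 CPM, a log2 fold change of 8.01 ± 0.40 (adjusted p = 4.18e-06). Gabre (chromosome X, 72255999 to 72274803) went from 2.73 and 2.001 to 20.5 and 38.1 CPM and rose by 3.57 ± 0.43 (adjusted p = 0.00312). These were the 2 called genes of 20 GABA, glutamate and acetylcholine receptor genes. Of 31 potassium channel genes, Kcnj15, an inward rectifier, rose, and Kcnj8, the pore of a channel gated by ATP, fell. Kcnj15 went from 31.8 and 33.1 to 146 and 170.4 CPM, with close values within each group and a log2 fold change of 2.23 ± 0.19 (adjusted p = 0.000523). Kcnj8 went from 28.9 and 13.4 to 3.53 and 1.35 CPM, with spread in both groups, a log2 fold change of -3.17 (adjusted p = 0.0176), and it is also a marker of pericytes. Of 50 other channel genes, Nalcn, a sodium leak channel, rose by 1.46 (adjusted p = 0.0386), and Ano6, a lipid scramblase, and Clcn5, an endosomal chloride exchanger, fell by 0.79 (adjusted p = 0.0456) and 0.88 (adjusted p = 0.0479). Calls were lost for Kcnj8 without HK3 (adjusted p = 0.0606), Nalcn without HK4 and HK15 (adjusted p up to 0.275), Ano6 without HK4, HK15 and HK16 (adjusted p up to 0.271) and Clcn5 without HK4, HK15 and HK16 (adjusted p up to 0.252), and values moved by over 1.5-fold for Gabra3 (8.62 without HK3) and Kcnj8 (-2.49 without HK3 and -4.02 without HK15). The calls of Ano6 and Clcn5 (adjusted p 0.0688 to 0.0724) were lost in the fit of all 8 libraries.

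Fmo2, a flavin-containing monooxygenase, which oxidises nitrogen- and sulfur-bearing compounds, was among the genes that rose most. Fmo2 (ENSMUSG00000040170, chromosome 1, 162874317 to 162898726) went from 48.0 and 35.5 to 609 and 743 CPM, with both DKO libraries far above both controls and a log2 fold change of 3.96 ± 0.21 (adjusted p = 4.87e-06). Of 64 xenobiotic and steroid metabolism genes, 2 rose and 1 fell (median -0.09). The fallen one was Ahr, the dioxin-sensing transcription factor, which went from 31.9 and 51.4 to 11.9 and 13.97 CPM and fell by 1.74 (adjusted p = 0.0196). The call of Ahr without HK4 and HK15 (adjusted p up to 0.122) was lost, and Fmo2 passed in every alternative run.

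An antioxidant enzyme and a cystine transporter fell. Srxn1, sulfiredoxin, which repairs overoxidised peroxiredoxins, went from 447 and 561 to 132 and 155 CPM, a log2 fold change of -1.87 ± 0.17 (adjusted p = 0.000813). Slc7a11, which imports cystine for glutathione synthesis, went from 96.0 and 308 to 34.7 and 27.7 CPM. Its controls differed widely from each other, both DKO libraries lay below them, and the log2 fold change was -2.74 ± 0.45 (adjusted p = 0.0240). They were the only called genes of 53 Nrf2 and glutathione genes (median -0.15); Hmox1, which degrades haem, was at 3026 and 4494 CPM against 2056 and 2555 CPM, -0.76 (adjusted p = 0.0874). Of 55 genes of ATF4 signalling, amino acid transport and one-carbon metabolism, 2 rose and 2 fell. Aldh1l2, a mitochondrial folate enzyme, fell by 1.44 (adjusted p = 0.0388) together with Slc7a11. Ddit4, an inhibitor of mTORC1, went from 15.6 and 14.4 to 51.8 and 54.2 CPM and rose by 1.76 ± 0.25 (adjusted p = 0.00576), and Slc43a3, a purine base transporter, rose by 0.67 (adjusted p = 0.0454). Pdk4, which restrains glucose oxidation, rose by 1.59 (adjusted p = 0.0495) and was, with Ddit4, 1 of 2 called genes of 45 glycolysis and hypoxia genes. The calls lost were those of Slc7a11 without HK15 and HK16 (adjusted p up to 0.688), Aldh1l2 without HK4, HK15 and HK16 (adjusted p up to 0.140), Slc43a3 without HK3, HK4, HK15 and HK16 (adjusted p up to 0.208) and Pdk4 without HK3, HK4, HK15 and HK16 (adjusted p up to 0.205), and values moved by over 1.5-fold for Slc7a11 (-3.34 without HK3 and -1.69 without HK4). In the fit of all 8 libraries Srxn1, Slc7a11, Aldh1l2 and Slc43a3 (adjusted p 0.0790 to 0.372) lost their calls.

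The promoter of Slc7a11 (minus strand, chr3:50443614-50443863, GRCm38.p6) is shown because it holds 2 copies of the amino acid response element TGATGNAA, in capitals and in opposite directions.
Slc7a11: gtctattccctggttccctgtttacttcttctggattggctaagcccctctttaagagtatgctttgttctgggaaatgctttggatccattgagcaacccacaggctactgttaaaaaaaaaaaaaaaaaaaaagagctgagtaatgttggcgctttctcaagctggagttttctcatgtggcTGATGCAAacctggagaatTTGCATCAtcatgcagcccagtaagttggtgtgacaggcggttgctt
This element was found in 5.38% of the promoters of lower genes (5 of 93), 4.35% of higher genes, 2.09% of all tested genes and 3.53% of all promoters.

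Lpl, lipoprotein lipase, went from 368 and 327 to 133 and 166 CPM and fell by 1.27 ± 0.17 (adjusted p = 0.00459). With Angptl4 it made the 2 fallen and 0 risen of 59 lipid uptake and storage genes (median -0.11). Of 33 cholesterol synthesis and uptake genes, 1 fell, Hsd17b7, an enzyme of the late pathway, at 83.1 and 118 CPM against 36.0 and 44.9 CPM, a log2 fold change of -1.36 (adjusted p = 0.0168). Of the 33, 26 lay below 0, with a median of -0.47 (-0.58 to -0.32 without 1 library). Prkab2, a subunit of the energy sensor AMPK, went from 136 and 148 to 295 and 289.6 CPM and rose by 0.98 (adjusted p = 0.00946). The calls of Hsd17b7 without HK15 (adjusted p = 0.109) and Prkab2 without HK15 (adjusted p = 0.0604) were lost, and that of Hsd17b7 (adjusted p = 0.0518) in the fit of all 8 libraries.

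Of 34 cell-surface peptidases and nucleotidases, 2 rose, 2 fell and 30 did not pass, with 29 below 0 (median -0.30, against 0.01 for all tested genes). Art4 (ENSMUSG00000030217, chromosome 6, 136848451 to 136857733), of the ADP-ribosyltransferase family, gave 6 and 5 counts in the controls and 315 and 232 in the DKO libraries. In CPM it went from 0.231 and 0.218 to 12.3 and 10.8 CPM, a log2 fold change of 5.60 ± 0.59 (adjusted p = 0.00162). Dpep1, a membrane dipeptidase, went from 218 and 137 to 793 and 664 CPM and rose by 1.98 ± 0.22 (adjusted p = 0.00194). The members that fell were Enpp1, which makes pyrophosphate from ATP, by 0.96 (adjusted p = 0.00762), and Mgam, a glucosidase, by 2.35 (adjusted p = 0.0444). Outside that list, Ang (chromosome 14, 51091150 to 51102009), angiogenin, a secreted ribonuclease, went from 3.23 and 2.13 to 34.3 and 31.4 CPM and rose by 3.55 ± 0.36 (adjusted p = 0.00139), while Rnase4, which shares its locus, was at 0.50 (adjusted p = 0.298). Pnp, purine nucleoside phosphorylase, lies near Ang on chromosome 14 and went from 187 and 169.9 to 500.2 and 458 CPM, with a log2 fold change of 1.37 ± 0.15 (adjusted p = 0.00205). Galntl2, of the enzyme family that starts mucin-type O-glycans, went from 12.5 and 7.004 to 57.9 and 45.5 CPM and rose by 2.34 ± 0.33 (adjusted p = 0.00572). Chst11, which sulfates chondroitin, went from 70.5 and 83.7 to 33.8 and 28.7 CPM and fell by 1.36 ± 0.22 (adjusted p = 0.0121). Those were the 2 called genes of 62 glycosyltransferase and heparan sulfate genes, of which 50 lay below 0 (median -0.35). Ang has close copies in the genome, so its value depends on how shared reads were counted. The calls lost were those of Enpp1 without HK15 (adjusted p = 0.0578) and Mgam without HK3, HK15 and HK16 (adjusted p up to 0.181), and Enpp1 (adjusted p = 0.0994) lost its call in the fit of all 8 libraries.

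Of 91 tested genes of ER (endoplasmic reticulum) folding and secretion, 2 rose and 1 fell (median -0.04). Manf, a secreted factor of ER stress, went from 24.2 and 23.8 to 72.2 and 71.7 CPM and rose by 1.53 ± 0.22 (adjusted p = 0.00602). Creld2, another ER stress gene, went from 17.0 and 6.92 to 55.7 and 48.6 CPM and rose by 2.06 ± 0.38 (adjusted p = 0.0274). Fkbp14, which folds procollagen, went from 50.3 and 46.8 to 23.3 and 21.3 CPM and fell by 1.18 (adjusted p = 0.0424). The chaperones Hyou1 at 1.04 (adjusted p = 0.0587), Pdia3 at 0.66 (adjusted p = 0.0709) and Hspa5 at 0.64 (adjusted p = 0.0717) did not pass. Cryab, a small heat shock protein, rose by 1.07 (adjusted p = 0.0311). Lost calls were those of Creld2 without HK15 (adjusted p = 0.0882), Fkbp14 without HK3, HK15 and HK16 (adjusted p up to 0.171) and Cryab without HK3 and HK15 (adjusted p up to 0.212), and the value of Creld2 (2.87 without HK3) moved by over 1.5-fold.

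The promoter of Creld2 (plus strand, chr15:88819396-88819645, GRCm38.p6) is shown because it was the only one of the 139 called genes to hold the full ER stress response element, a CCAAT box and CCACG set 9 bases apart, here in capitals on the opposite strand.
Creld2: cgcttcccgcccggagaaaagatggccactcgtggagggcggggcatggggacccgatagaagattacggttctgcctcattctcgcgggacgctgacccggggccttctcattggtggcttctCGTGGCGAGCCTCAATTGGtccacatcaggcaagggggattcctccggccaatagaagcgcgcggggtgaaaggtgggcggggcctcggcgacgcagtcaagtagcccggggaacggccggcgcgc
All promoters held this element in 0.122% of cases, 33 of 27025, and those of all tested genes in 0.133%.

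A spliceosome gene, the noncoding RNA 7SK and imprinted genes rose. Cwc22 (ENSMUSG00000027014, chromosome 2, 77881159 to 77946375), a spliceosome protein that also helps load the exon junction complex, went from 30.2 and 32.8 to 390.0 and 399 CPM, with close values within each group and a log2 fold change of 3.59 ± 0.17 (adjusted p = 4.18e-06). It was the only called gene of 82 splicing genes (median 0.08), beside 1.31% of all tested genes, and it has close copies in the genome. The small nuclear RNA 7SK, which holds the elongation factor P-TEFb inactive, went from 269 and 234 to 639 and 547 CPM and rose by 1.18 ± 0.16 (adjusted p = 0.00459). The 7SK value is a sum over several gene entries of that symbol, and its single entries were not read. Gas5, the host of several small nucleolar RNAs, rose by 0.80 (adjusted p = 0.0339). Peg3 and Peg10, both expressed from the paternal copy only, went from 155 and 159 to 382 and 365 CPM and from 43.8 and 44.8 to 119 and 121 CPM. The log2 values were 1.20 ± 0.15 (adjusted p = 0.00365) for Peg3 and 1.38 ± 0.19 (adjusted p = 0.00478) for Peg10, and they were the only called genes of 29 imprinted genes. None of 77 cytosolic ribosomal protein genes passed, while 74 lay above 0 (median 0.44, and 0.28 to 0.58 without 1 library). None of 75 oxidative phosphorylation genes (median 0.12) or 38 proteasome genes (median 0.00) passed. The call of Gas5 without HK16 (adjusted p = 0.183) was lost, and those of 7SK and Gas5 (adjusted p 0.0569 to 0.153) in the fit of all 8 libraries.

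Of 67 cell cycle genes, 2 fell and none rose (median -0.25). Mki67, expressed in dividing cells, went from 39.2 and 33.8 to 9.79 and 3.59 CPM, with a log2 fold change of -2.50 ± 0.43 (adjusted p = 0.0172), and Cdk6, a G1 kinase, went from 66.6 and 83.5 to 28.8 and 35.9 CPM and fell by 1.27 (adjusted p = 0.0236). Top2a was at -1.57 (adjusted p = 0.120) and Ccnd1 at -1.14 (adjusted p = 0.115). Nr1d1, a repressor of the circadian clock, went from 287 and 379 to 154 and 132 CPM and fell by 1.28 ± 0.18 (adjusted p = 0.00521), the only called gene of 21 clock genes. Of 80 fibroblast transcription factor genes, Peg3 alone passed, beside 1.31% of all tested genes. Meox1 was at 1.17 (adjusted p = 0.0622) and Tbx20 at 0.59 (adjusted p = 0.0818). Creb5, a transcription factor of the CREB family outside the list, went from 108 and 101 to 33.5 and 38.0 CPM and fell by 1.60 ± 0.20 (adjusted p = 0.00374). Eya2, a transcriptional coactivator, went from 8.77 and 6.92 to 32.9 and 27.2 CPM and rose by 1.88 (adjusted p = 0.0168). The calls of Cdk6 without HK15 (adjusted p = 0.163) and Eya2 without HK15 (adjusted p = 0.116) were lost, the value of Mki67 (-3.39 without HK15) moved by over 1.5-fold, and in the fit of all 8 libraries Eya2 (adjusted p = 0.0534) lost its call.

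Several genes outside the lists kept their calls without each library in turn. Lgals3bp, a secreted glycoprotein that binds galectins, went from 311 and 249 to 84.5 and 77.8 CPM and fell by 1.84 ± 0.18 (adjusted p = 0.00108). Ndrg4 went from 114.3 and 96.8 to 37.4 and 29.5 CPM and fell by 1.72 ± 0.22 (adjusted p = 0.00374), and Sorcs2, a sorting receptor that also binds neurotrophin precursors, from 42.9 and 38.8 to 11.5 and 9.50 CPM, and fell by 2.02 ± 0.28 (adjusted p = 0.00521). D0H4S114 fell by 2.27 ± 0.31 (adjusted p = 0.00482), Btbd3 by 1.45 (adjusted p = 0.00442), Ssc5d, a secreted scavenger receptor-like protein, by 1.33 (adjusted p = 0.00572), and Sh3kbp1, an adaptor of receptor endocytosis, by 1.27 (adjusted p = 0.00442). Fam160b2 went from 26.001 and 32.5 to 75.1 and 90.2 CPM and rose by 1.44 ± 0.23 (adjusted p = 0.00989). Mid1, a microtubule-bound ubiquitin ligase, went from 99.9 and 136 to 27.3 and 39.8 CPM and fell by 1.87 ± 0.25 (adjusted p = 0.00442). It overlaps the noncoding genes G530011O06Rik and Gm15726, and no strand-marking step is described, so reads of the 3 cannot be told apart. Of 22 prostaglandin and nitric oxide genes, Pla2g4a, the phospholipase that frees arachidonic acid, fell by 0.79 (adjusted p = 0.0495). Of 23 glucocorticoid-responsive genes Ddit4 and Pdk4 rose and Angptl4 fell, and of 26 YAP and SRF target genes Gadd45b alone rose. None of 47 regulators of G protein signalling (median -0.15) and none of 62 lysosome and autophagy genes (median -0.01) passed. The call of Pla2g4a without HK4, HK15 and HK16 (adjusted p up to 0.250) was lost, and those of Ssc5d and Pla2g4a (adjusted p 0.0519 to 0.0708) in the fit of all 8 libraries.

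**Figure D3:**
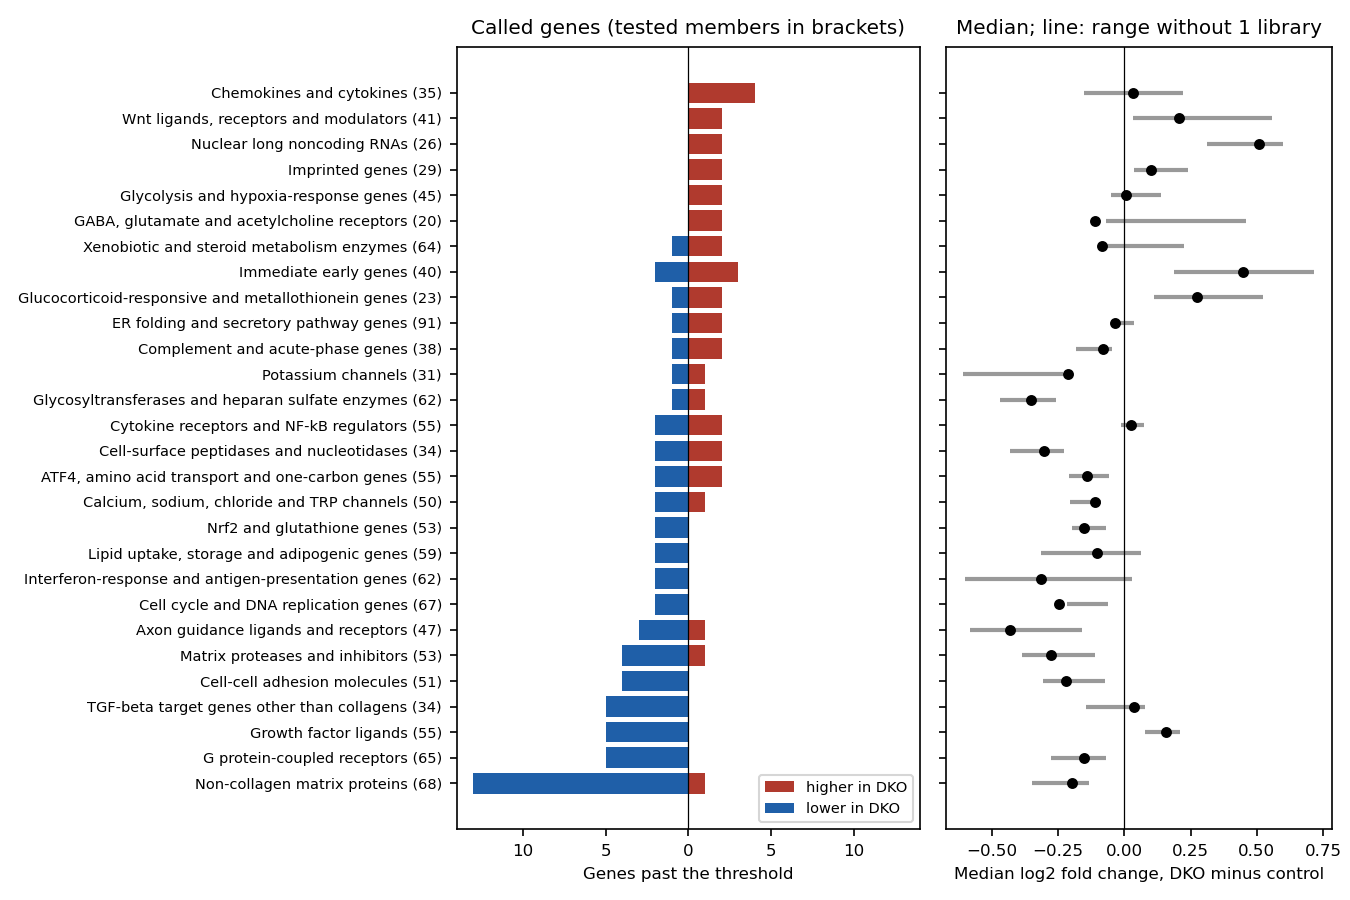
Left, number of genes past the threshold in each list with at least 2 of them, higher (red, to the right) or lower (blue, to the left), with the number of tested members in brackets; right, the median log2 fold change of the tested members (point) and its range without 1 library (line). Non-collagen matrix proteins have the most fallen genes (13 of 68 tested) and chemokines the most risen (4 of 35), but the lists differ in size. Over all tested genes 0.857% fell and 0.451% rose. The medians lie within 1 log2 unit of 0.

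Markers of other cell types were read in the same libraries. The 15 cardiac fibroblast markers summed to 27924, 23420.1, 23716.5 and 22908 CPM in library order, with Dcn at 10471 and 8965 CPM against 10389 and 10294 CPM. Of the 15, 6 lay above and 9 below 0 (median -0.37, and -0.43 to -0.04 without 1 library). Among them Dpep1 rose, and Col1a2 and Lamc1 fell. The 15 markers of activated fibroblasts summed to 6922, 7462, 5118 and 4581 CPM, lower in both DKO libraries, and 3 of them fell (Fn1, Tnc and Thbs4). The 20 endothelial markers summed to 1111, 590.3, 628 and 509.8 CPM; 19 of 20 lay below 0 (median -0.89, and -1.22 to -0.11 without 1 library), none passed, and all 20 were detected. The 19 cardiomyocyte markers summed to 683, 727, 771 and 716 CPM. Of their 16 tested members, 13 lay below 0 (median -1.105, and -1.40 to -0.70 without 1 library) and none passed. The 16 pericyte and smooth muscle markers summed to 1625, 908, 1104 and 844 CPM (median -0.30), with Kcnj8 the only one to pass. The median was -0.81 for 9 tested myeloid markers (-1.39 to 0.17 without 1 library). It lay above 0 for Schwann cell (0.29, 8 tested) and lymphocyte markers (0.47, 4 tested). Myeloid markers summed to 35.6 to 44.0 CPM, lymphocyte markers to 4.61 to 8.85 CPM, erythroid to 6.26 to 35.8 CPM, Schwann cell to 39.5 to 58.0 CPM, epicardial to 36.8 to 71.0 CPM and adipocyte to 1.49 to 6.78 CPM. Control HK3 held the highest endothelial, pericyte and erythroid sums. In sorted bulk cells, fewer cells of a type and less RNA per cell cannot be told apart. The part of these markers in the falls, such as that of Calcrl, which endothelial cells also express, was not tested.

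**Figure D4:**
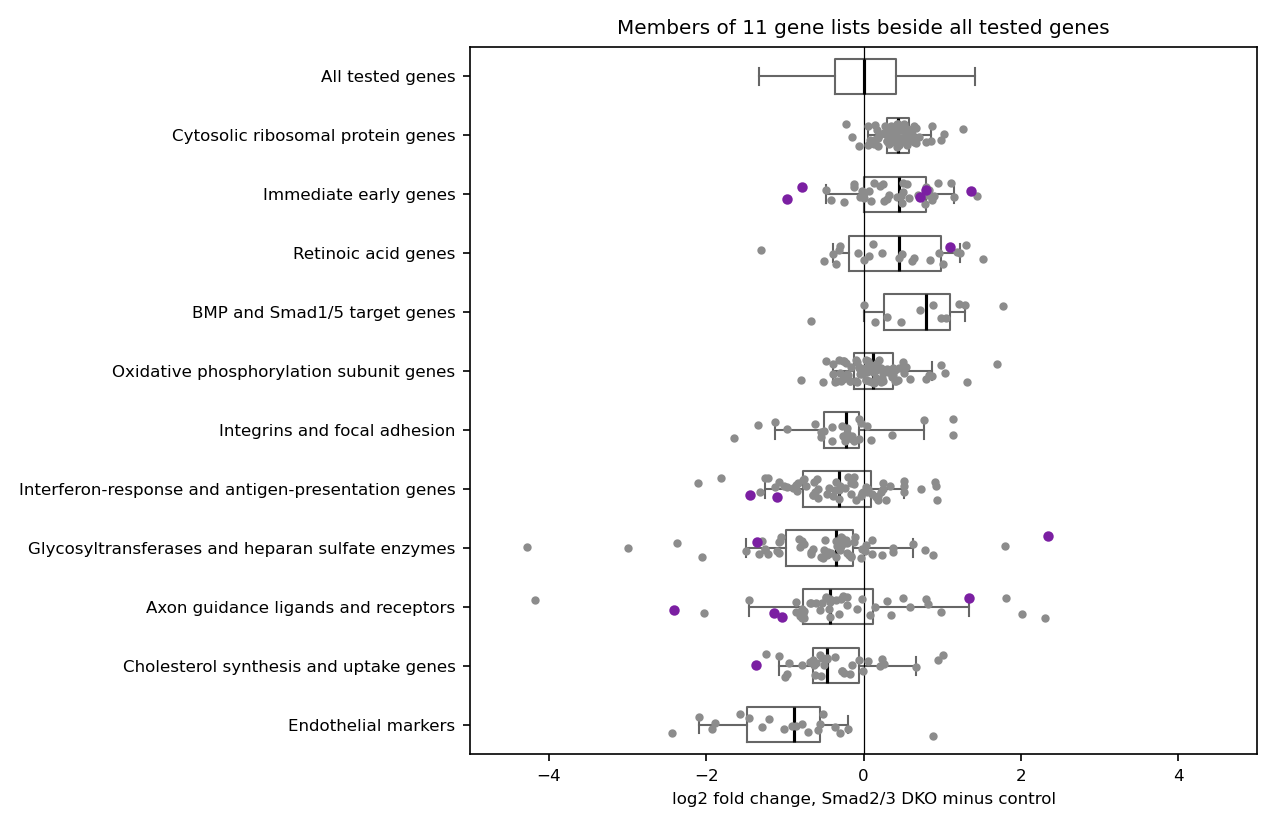
Log2 fold changes (DKO minus control) of the tested members of 11 lists, each point a gene, purple where it passed the threshold; boxes show the quartiles and median, whiskers the 5th and 95th percentiles, and the top box all tested genes. Ribosomal protein genes lie in a narrow band above 0 (median 0.44), and endothelial markers mostly below it (median -0.89). No other marker list is drawn, and the median of the cardiomyocyte markers was lower (-1.105).

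Called genes were also placed on the genome. In 25 places, 2 or more called genes followed one another with gaps of at most 1 Mb, whichever way they moved. No such count was made for all tested genes, so the 25 are a description only. These places include Mid1 with the noncoding genes that overlap it. In some the neighbours rose together: Gabra3 with Gabre, Ccl2 with Ccl7, Pnp with Ang, Stk32b with Cytl1, and Pdlim3 with Ccdc110. Ccdc110 had no control counts and 31 and 86 in the DKO libraries, at least 40.6-fold higher against a floor of 3 counts over the control group (adjusted p = 0.0345, but 0.0528 without HK3 and 0.292 without HK16). The bound was 19.1 without HK3, 21.6 without HK4, 65.4 without HK15 and 19.8 without HK16. At chromosome 2, 176226569 to 176927809, 2210418O10Rik and Gm14296, predicted genes chosen after their values were seen, rose by 5.63 (adjusted p = 0.0149) and 6.06 (adjusted p = 0.00301) from under 0.2 CPM in each control. In others neighbours moved apart, as for Col1a2, which fell, with Peg10 and Pdk4, which rose. Within 10 Mb of Postn, 2 of 64 tested genes passed (3.12%), and within 5 Mb 2 of 48 (4.17%), beside 1.31% of all tested genes. Within 10 Mb of Smad3, 1 of 193 passed (0.518%). None of 77 passed near Smad2 and none of 124 near the Rosa26 reporter locus. Near Smad3 it was Glce, an epimerase of heparan sulfate synthesis, which fell by 0.93 (adjusted p = 0.0345). Near Postn they were Dclk1, a microtubule-associated kinase, which fell by 0.95 (adjusted p = 0.0321), and Slc7a11, which went from 96.0 and 308 to 34.7 and 27.7 CPM. A call was lost for Glce without HK4, HK15 and HK16 (adjusted p up to 0.127), Dclk1 without HK4 and HK15 (adjusted p up to 0.211) and Slc7a11 without HK15 and HK16 (adjusted p up to 0.688), for Stk32b without HK15 (adjusted p = 0.0849), and for Pdk4 without each library in turn (adjusted p up to 0.205). In the fit of all 8 libraries it was lost for Glce and Slc7a11 (adjusted p 0.0750 to 0.372), Ccdc110 (adjusted p = 0.0637), Ccl2 (adjusted p = 0.172) and Ccl7 (adjusted p = 0.0857). Without 1 library a value moved by over 1.5-fold for 2210418O10Rik (5.02 without HK3 and 6.63 without HK4), Gm14296 (6.70 without HK4) and Slc7a11 (-3.34 without HK3 and -1.69 without HK4).

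The other 4 libraries of the series compare Tgfbr1/2 DKO fibroblasts with Tcf21-Cre controls, with no shared control, but another run and another Cre driver, so that run, driver and targeted genes differ together. In that comparison 657 of 16658 tested genes passed (3.94%; 2.64% higher and 1.31% lower), and the difference between the effects passed for 326 of 17770 (1.83%). Of the 73 genes that kept their calls without each library, with at least 10 CPM in the higher group and no predicted gene among them, 15 also passed in the Tgfbr1/2 comparison, 6 in the same direction and 9 in the opposite one. Same in direction were Gpr39 at -1.93 (adjusted p = 0.00291), D0H4S114 at -1.57 (adjusted p = 0.0222), Col4a3 at -2.71 (adjusted p = 0.000339), Fndc1 at -1.11 (adjusted p = 0.0222), Manf at 1.41 (adjusted p = 0.00417) and Dpep1 at 1.34 (adjusted p = 0.00951), and for none of the 6 did the difference pass. Gpr39 was at 49.2 and 32.2 CPM with Tcf21-Cre alone and 10.8 and 9.39 CPM after Tgfbr1/2 knockout, so that it was lower in both. The difference between the effects for Gpr39 was -0.69 ± 0.34 (adjusted p = 0.335) and for Manf 0.11 ± 0.26 (adjusted p = 0.882).

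**Figure D5:**
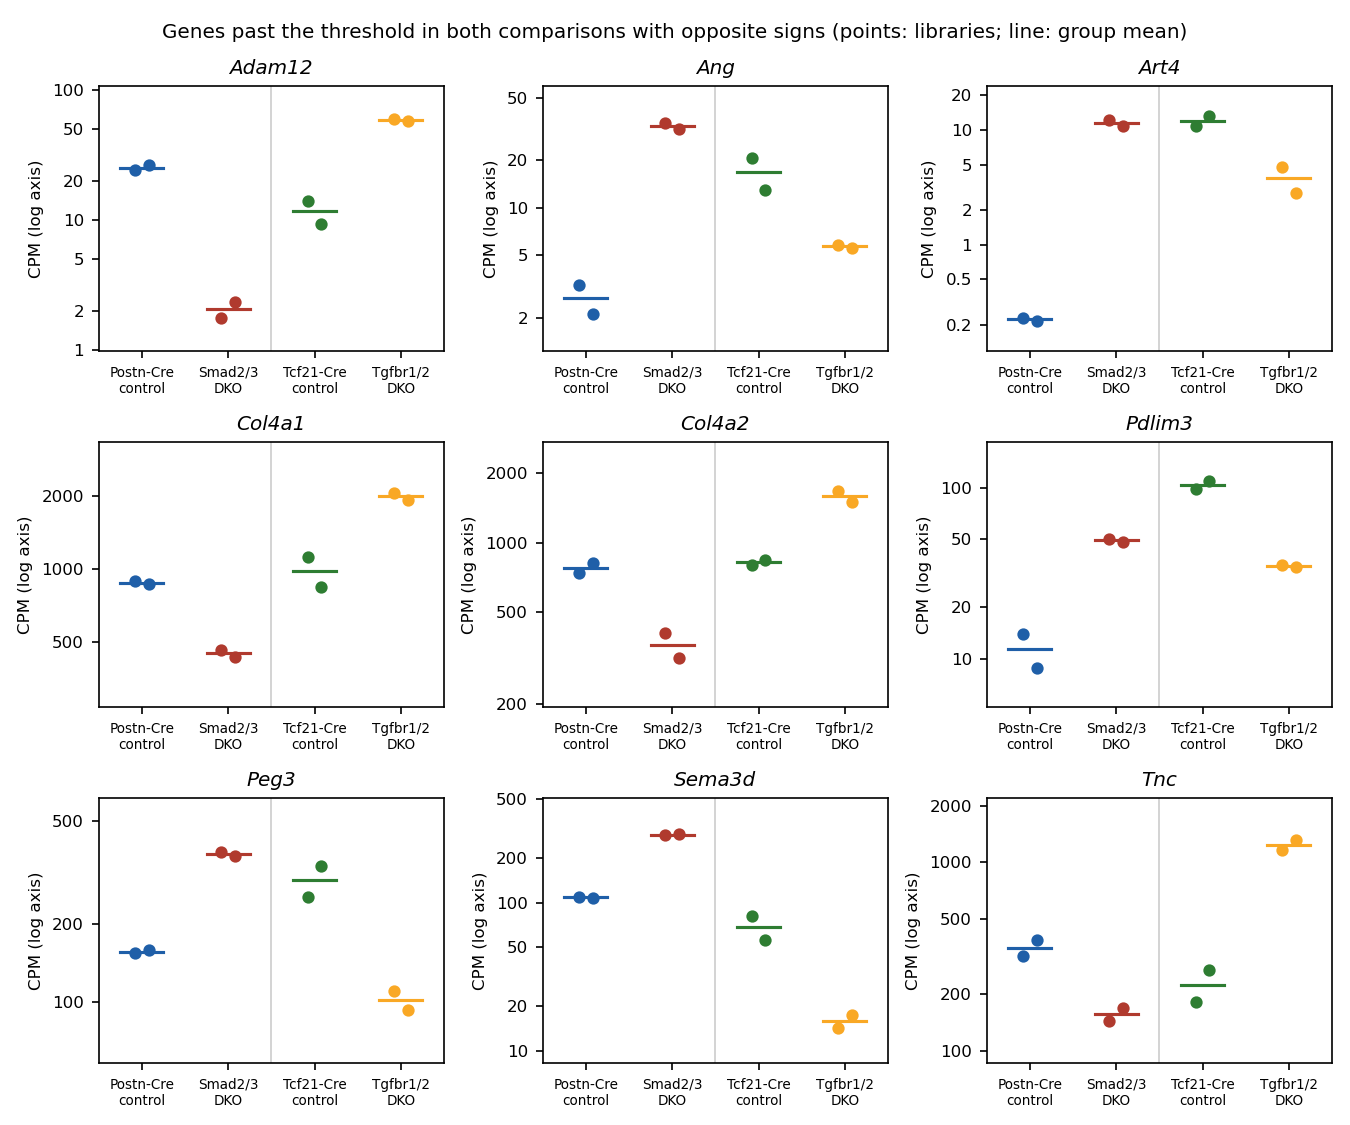
Level in each of the 8 libraries (points, CPM on a log axis; horizontal line, group mean) for the 9 genes past the threshold in both comparisons with opposite signs; the grey line divides the runs. Adam12, Tnc, Col4a1 and Col4a2 are lower in Smad2/3 DKO and higher in Tgfbr1/2 DKO libraries than in their own controls, and Ang, Art4, Pdlim3, Peg3 and Sema3d the reverse.

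Some of the strongest rises started from a low level in the Postn-Cre controls compared with the Tcf21-Cre controls. Art4 was at 0.231 and 0.218 CPM in the former and at 10.9 and 13.1 CPM in the latter. Ang was at 3.23 and 2.13 CPM against 20.8 and 13.004 CPM, Cytl1 at 27.3 and 22.1 CPM against 225 and 195 CPM and Pdlim3 at 13.9 and 8.87 CPM against 98.4 and 109 CPM. Postn, the driver gene, which did not pass in the Smad2/3 comparison, was at 208 and 186 CPM in the Postn-Cre controls. In the Tcf21-Cre controls it was at 1615 and 3076 CPM. All these levels were set across separate runs and drivers and were not tested. For Gabra3 the Tcf21-Cre controls were at 3.80 and 2.36 CPM, for Fmo2 at 102 and 104 CPM and for Cwc22 at 24.3 and 22.3 CPM, and none of the 3 passed in the Tgfbr1/2 comparison. The differences between the effects were 9.17 ± 0.58 (adjusted p = 3.14e-05) for Gabra3, 3.37 ± 0.28 (adjusted p = 0.000307) for Fmo2 and 3.86 ± 0.24 (adjusted p = 3.14e-05) for Cwc22.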

How the data were processed

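RNA was sequenced from cardiac fibroblasts sorted from mice, and 4 of the 8 libraries make the comparison described here. The authors deposited, per the file headers, tables of expected counts (estimated counts that need not be whole) for 38087 gene entries; 12.6% of the values above 0 were whole numbers. The genome build is mm10, per the submitters' processing notes, while the sources used here give neither the aligner nor the counting program. The 4 deposited fold change tables were not used.

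Expected counts were summed per gene symbol (34399 symbols, 278 of them from several entries) and rounded to whole numbers. Genes with enough counts by edgeR's filterByExpr were tested in R 4.3.3 with edgeR 4.0.16 (TMM scaling, robust quasi-likelihood test, two-sided), with Benjamini-Hochberg adjustment over all tested genes and a threshold of 0.05. The fit held the 4 libraries and the group only. The difference between the Smad2/3 and Tgfbr1/2 effects was tested as an interaction over all 8 libraries. CPM were taken over library totals without TMM factors, and intervals and floors cover counting error only. The scripts were tested on simulated data. Alternatives were DESeq2 1.42.0, other size factors, no low-count filter, no robust estimation, all 8 libraries in 1 fit, no X or Y genes, unsummed entries and each library left out.

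Positions are those of GENCODE vM21, in which 95.3% of identifiers were found. Promoters are RefSeq sequences of GRCm38.p6, 250 bases before the start site, matched by symbol for 139 of the 206 called genes. The 50 gene lists and 11 marker lists, and the comparison itself, were chosen with earlier results of these data known, so they give no independent support, and each is described by counts and medians. Named were the targeted, driver and sex-chromosome genes; the genes past the threshold in every fit without 1 library, with at least 10 CPM in the higher group and no predicted gene; up to 8 called members of each list; up to 3 members with the smallest p in lists without a call; and called genes within 10 Mb of a targeted locus. Other genes that are named, and members that did not pass in lists with a call, were chosen after their values were seen. Results for a few genes are not reported here.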

Additional observations from a re-analysis of the deposited data

Results flagged for a closer look

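For 9 genes the Smad2/3 and the Tgfbr1/2 knockout effects had opposite signs, each past the threshold in its own comparison. The difference between the effects passed edgeR's quasi-likelihood test (Benjamini-Hochberg adjusted over 17770 genes). The genes were chosen by those effects in the same 8 libraries, so this pass was nearly fixed beforehand and gives no separate support. The differences, Smad2/3 effect minus Tgfbr1/2 effect on the log2 scale, were 7.20 for Art4, 5.01 for Ang, 3.53 for Pdlim3, 3.34 for Sema3d and 2.65 for Peg3, which were higher in the Smad2/3 and lower in the Tgfbr1/2 knockout libraries. They were -6.11 for Adam12, -3.77 for Tnc, -2.20 for Col4a2 and -2.15 for Col4a1, which were lower in the Smad2/3 and higher in the Tgfbr1/2 knockout libraries. All 9 stayed past the threshold in every alternative run for them, with a highest adjusted p of 0.0286. Sequencing run, Cre driver and targeted genes differ together between the comparisons and cannot be told apart.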

How the results depend on the processing

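The 206 calls became 819 (349 higher, 470 lower) without the low-count filter and 744 (309 higher, 435 lower) with DESeq2, and all 206 were among them in both. Leaving out 1 library at a time gave 102 to 297 calls. With all 8 libraries in 1 fit there were 180 calls (77 higher, 103 lower, so 42.8% higher against 34.5%), of which 123 were shared with the 206. Without HK3 47.7% of calls were higher. Of the 206 genes, 64 passed under every alternative that tested them, 57 were lost only when 1 library was left out, 85 were lost under another setting, and none changed sign. The test of the difference between effects gave 326 calls, 1123 with DESeq2, 1195 without the low-count filter and 89 to 302 without 1 library. Within 20 Mb of the targeted loci 6 of 837 tested genes passed (0.717%), against 3 of 458 within 10 Mb (0.655%). Over all tested genes the share was 1.31%. The cause of these changes was not tested. No paired analysis was possible because the library numbers of the compared groups are not shared. With 2 libraries per group, a gene that missed the threshold may still differ.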
